A study of Mus musculus with 6 samples.

Results

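Glycolysis and hypoxia response genes were examined in plasmacytoid dendritic cells (pDCs), the interferon-producing dendritic cells of blood and bone marrow, after induced deletion of the repressor genes *Gfi1* and *Gfi1b*. The 36 genes were listed by function: 17 glycolytic enzymes, 6 genes for glucose and lactate transport and flux control, the transcription factor subunit *Hif1a*, and 12 targets of hypoxia-inducible factor (HIF) outside glycolysis. A gene was taken as measured where a probe set of the Affymetrix Mouse Gene 1.0 ST array names that gene alone, and the probe set with the highest mean over the 6 arrays stood for it. By this rule 33 of the 36 genes were measured, out of 19937 genes in all. *Gapdh* is on 11 probe sets that each name several genes, and it was not used here. *Gpi1* and *Eno1* were not analysed here. The rule uses no difference between KO and WT pDCs.

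Total bone marrow of 3 C57BL/6 mice that carried *Gfi1* f/f, *Gfi1b* f/f and ERCre was cultured with 25 ng/ml Flt-3L. From each mouse a culture with 1 µM tamoxifen (KO) and an untreated culture (WT) were sorted for B220+ CD11c+ cells, which gave 3 KO and 3 WT arrays, each from 200 ng of total RNA. WT cultures thus carried the same floxed alleles and the same ERCre as KO cultures, so deletion, tamoxifen and activated Cre cannot be told apart. ERCre is driven from the ubiquitous *Rosa26* locus, so every cell type in a culture could undergo deletion, and the genotyping PCR of the study showed that deletion in these cultures was incomplete. The sources used here do not give the age of the mice. KO and WT are the labels of the arrays. The probe sets of the targeted genes did not show a loss: *Gfi1* had intensities of 60.5, 67.1 and 61.9 in KO arrays of mice 1, 2 and 3, against 56.1, 47.8 and 43.3 in WT arrays, and *Gfi1b* had 194, 279 and 259 in KO arrays, against 179, 161 and 155 in WT arrays. Both were higher in the arrays labelled KO in all 3 mice, and the sources used here do not say where their probes lie relative to the deleted exons. All 3 WT values of *Gfi1* and its KO value of mouse 1 lay under the background level of 61.9 described below. The *Gfi1* difference is thus between values near background, whereas all *Gfi1b* values lay above it. The paper states that RT-qPCR showed raised expression of the recombination activating genes in KO cultures ahead of the arrays (data not shown there). Every direction below rests on the array labels.

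Glycolysis splits glucose into pyruvate in the cytosol, and lactate dehydrogenase turns pyruvate into lactate when oxygen is short or when cells grow fast. HIF is a dimer of an oxygen-sensitive alpha subunit and a constant beta subunit. With oxygen present, prolyl hydroxylases mark the alpha subunit for destruction, and without it the dimer binds short motifs at glycolytic genes and at genes for blood vessel growth, collagen modification and mitochondrial removal. Activated dendritic cells are known to raise glycolysis and *Hif1a*.

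The arrays of mouse 1 stood apart in their cell type markers, and each mouse's pair of arrays shared deviations from its group (Pearson's r over all probe sets of 0.808, 0.512 and 0.671 for mice 1, 2 and 3). All 17 measured pDC markers of 19 listed were above background, on every array, with background taken as 61.9, the level under which 95% of the values of 1204 probe sets for odorant and pheromone receptors lay. The summed pDC marker intensity was 54420, 38980 and 35730 in KO arrays of mice 1, 2 and 3, against 56660, 29950 and 24630 in WT arrays. Markers of stromal cells, which the sort gate should remove, summed to 1290, 6251 and 7176 in KO arrays and to 1484, 17840 and 20150 in WT arrays. Neutrophil markers summed to 819.1, 3027 and 5456 in KO arrays and to 1633, 9570 and 12300 in WT arrays. They did not all move the same way. The mean log2 difference, KO minus WT, was below 0 for 11 neutrophil markers and above 0 for 4 (*Elane*, *Mpo*, *Prtn3* and *Ctsg*). Macrophage and monocyte markers summed to 9500, 36040 and 39250 in KO arrays and to 11470, 43550 and 46370 in WT arrays. The KO and the WT mean both lay under background for 1 of 20 stromal, 2 of 15 neutrophil and 0 of 16 macrophage markers, and no marker was at 0. In sorted bulk RNA, fewer cells of a type and less RNA per cell cannot be told apart.

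Most members were lower in KO pDCs of mice 2 and 3 and higher in KO pDCs of mouse 1, and no member passed the adjusted threshold over the 3 mice. The mean log2 difference, KO minus WT, was below 0 for 29 of the 33 members (87.9%), against 44.1% of all probe sets. With limma, 0 of 33 members passed an adjusted p of 0.05, as did 0% of the 21640 probe sets, and with the mouse as a block the counts were again 0 members and 0% of probe sets. At an unadjusted p of 0.05, 1 member (*Hif1a*) was lower, against 1.9% of probe sets, and 0 members were higher, against 5.14%. With the mouse as a block 6 members (*Hk3*, *Hif1a*, *Vegfa*, *Ero1l*, *P4ha1* and *P4ha2*) were lower at an unadjusted p of 0.05, against 5.99% of probe sets, and 0 were higher, against 7.46%. The mice split in most members: 25 of 33 (75.8%) were higher in KO pDCs of mouse 1 and lower in KO pDCs of mice 2 and 3, against 11.4% of all probe sets. The split was seen in 11 of 14 enzymes, 4 of 6 transport and flux genes and 10 of 12 HIF targets.

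**Figure D1:**
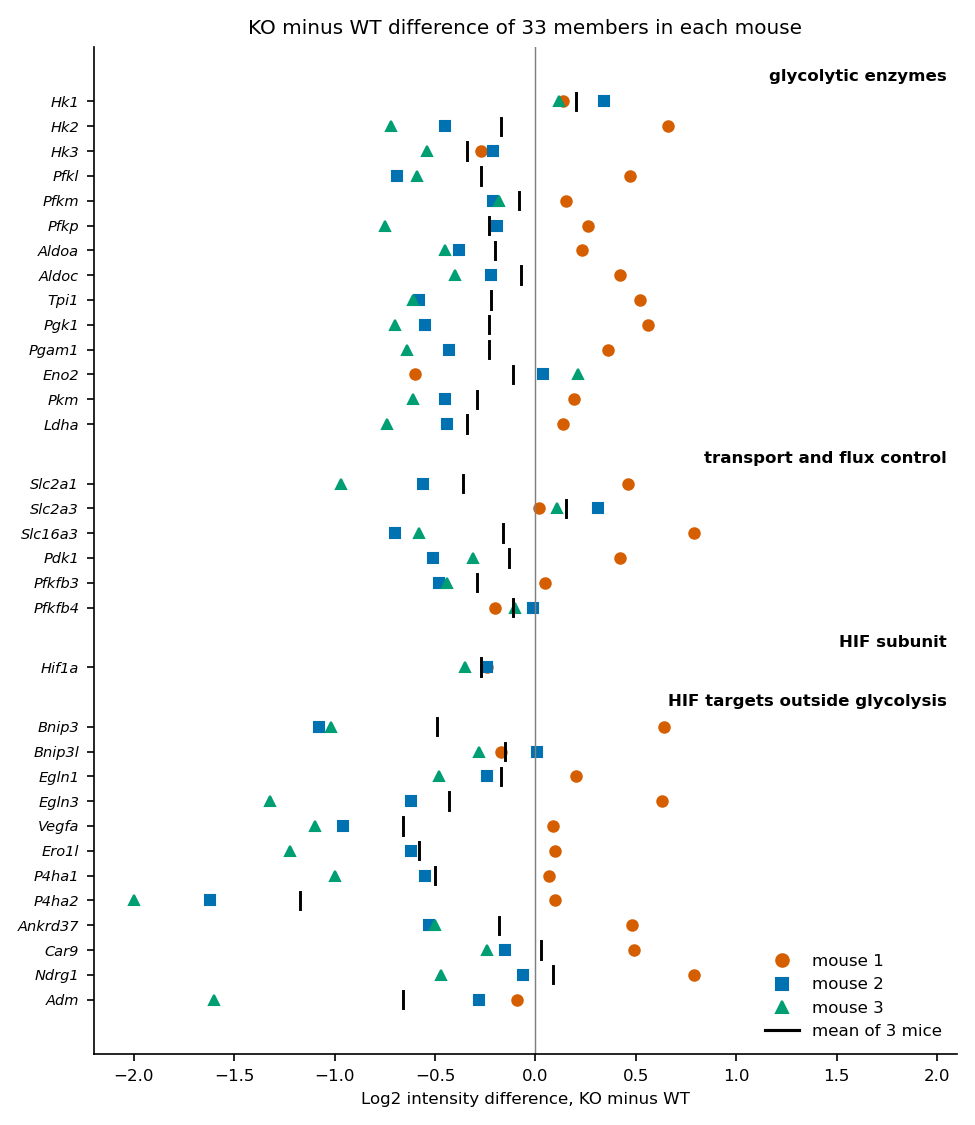
Log2 intensity difference, KO minus WT, of the 33 measured members on the horizontal axis, with 1 gene a line, a point for each mouse and a black bar for the mean of 3 mice. In 25 members the mouse 1 point lies right of 0 and the points of mice 2 and 3 lie left of it, and *P4ha2* reaches the lowest value, -2.00 in mouse 3.

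*Hif1a*, which encodes the oxygen-sensitive alpha subunit, was the member with the most even difference between mice. Its intensity was 433, 407 and 440 in KO arrays of mice 1, 2 and 3, against 511, 479 and 559 in WT arrays. Every KO value lay below every WT value, which held for 1 of 33 members, against 4.65% of all probe sets. The means were 426.5 ± 17.6 in KO and 516.6 ± 40.3 in WT pDCs (SD, n = 3 each), a log2 difference of -0.27 (SE 0.10) with a limma p of 0.030 and an adjusted p of 0.69. With the mouse as a block the adjusted p was 0.33, and the exact permutation test gave p = 0.1, the smallest that 3 against 3 arrays allow (two-sided). The difference was -0.24, -0.24 and -0.35 in mice 1, 2 and 3. Of 14 measured genes of the HIF pathway outside the members, none was past an unadjusted limma p of 0.05. The shares of all probe sets were 1.9% lower and 5.14% higher. With the block there was again none, against 5.99% and 7.46%. The median log2 difference of these 14 genes was 0.03. They included the beta subunit *Arnt* (-0.08, SE 0.13), the ubiquitin ligase component *Vhl* (0.03, SE 0.10) and the second alpha subunit *Epas1* (-0.00, SE 0.69). The mean of *Epas1* hides a split between mice, with differences of 0.65, -0.28 and -0.38 in mice 1, 2 and 3. Both of its mouse 1 arrays were under background, at 56.7 in KO and 36.2 in WT.

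The promoters of the members were searched for the 2 HIF core motifs, ACGTG and GCGTG, on both strands, in the RefSeq GRCm38.p6 window of 250 bases before to 50 bases after each start. CACGTG holds ACGTG on both strands and counts as 2 matches. A core was present in 34 of 42 promoters of 30 measured members (81.0%), against 43.8% of all 32851 promoters, with 17 of 23 promoters of enzymes (73.9%) and 10 of 11 of HIF targets (90.9%). The ACGTG form was in 52.2% of enzyme promoters and 81.8% of HIF target promoters, against 19.6% of all. Median GC content was 59.0% in enzyme promoters and 69.0% in HIF target promoters, against 52.7% in all. The share of promoters with a core and the GC content were both higher for HIF targets than for enzymes, and the part of GC content in the share was not tested. The members were listed as glycolysis genes and HIF targets, at which HIF is known to bind such motifs. Their share of cores is thus not independent of how the genes were chosen. A gene with several starts counts once for each, with 23 promoters for 14 enzymes and 11 for 10 HIF targets. Among these enzymes only *Tpi1* and *Eno2* had no core at any start, and each of these HIF targets had a core at a start. The 250 bases before the start, 5′ to 3′ on the gene's strand, are shown for *Hif1a*, the subunit itself, at chr12:73907617-73907866 (plus strand), for 2 enzymes, *Pgk1* at chrX:106186850-106187099 (plus strand) and *Ldha* at chr7:46845554-46845803 (plus strand), for the glucose transporter *Slc2a1* at chr4:119108495-119108744 (plus strand), and for 2 HIF targets at the lowest log2 differences over mice 2 and 3 (-1.05 and -1.81), *Bnip3* at chr7:138909507-138909756 (minus strand) and *P4ha2* at chr11:54100674-54100923 (plus strand). Capitals mark each core on either strand, so CACGT and CACGC are cores on the other strand.
Hif1a: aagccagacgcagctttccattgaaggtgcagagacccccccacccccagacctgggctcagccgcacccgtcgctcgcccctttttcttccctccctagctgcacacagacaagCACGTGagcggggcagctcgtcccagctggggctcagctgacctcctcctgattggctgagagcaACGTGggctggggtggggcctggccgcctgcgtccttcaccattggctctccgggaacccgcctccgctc
Pgk1: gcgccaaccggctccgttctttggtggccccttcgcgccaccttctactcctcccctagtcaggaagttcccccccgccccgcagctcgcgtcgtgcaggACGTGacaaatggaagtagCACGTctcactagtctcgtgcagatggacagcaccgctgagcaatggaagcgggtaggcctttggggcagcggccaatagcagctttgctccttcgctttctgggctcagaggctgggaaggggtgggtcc
Ldha: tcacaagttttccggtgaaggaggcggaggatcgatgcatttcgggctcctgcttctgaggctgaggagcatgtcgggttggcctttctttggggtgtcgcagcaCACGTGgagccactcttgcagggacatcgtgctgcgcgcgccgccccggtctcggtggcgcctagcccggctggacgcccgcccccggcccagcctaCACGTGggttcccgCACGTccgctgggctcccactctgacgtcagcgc
Slc2a1: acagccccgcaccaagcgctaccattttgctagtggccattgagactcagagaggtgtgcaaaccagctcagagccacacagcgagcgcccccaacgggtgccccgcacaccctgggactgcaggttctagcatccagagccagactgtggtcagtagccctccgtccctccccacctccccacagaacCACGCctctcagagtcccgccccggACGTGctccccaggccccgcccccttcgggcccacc
Bnip3: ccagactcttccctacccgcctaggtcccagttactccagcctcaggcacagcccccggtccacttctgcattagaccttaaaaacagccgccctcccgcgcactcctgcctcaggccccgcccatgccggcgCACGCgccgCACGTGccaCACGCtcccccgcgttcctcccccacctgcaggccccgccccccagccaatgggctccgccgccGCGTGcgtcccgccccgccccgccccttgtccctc
P4ha2: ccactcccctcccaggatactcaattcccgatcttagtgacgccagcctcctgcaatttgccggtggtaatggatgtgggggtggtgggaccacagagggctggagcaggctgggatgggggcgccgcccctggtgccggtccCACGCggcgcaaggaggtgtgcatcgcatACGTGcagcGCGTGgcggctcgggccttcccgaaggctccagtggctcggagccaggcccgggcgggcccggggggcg
*Ldha* and *Bnip3* each had 5 cores before the start, *Hif1a* and *P4ha2* had 3, and *Pgk1* and *Slc2a1* had 2. A match is a stretch of letters and was not tested for binding.

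The glycolytic enzymes carry out the steps between glucose and lactate. The median log2 difference of the 14 measured enzymes was -0.22, with single genes between -0.34 and 0.20, against 0.03 over all probe sets. By mouse the median was 0.24, -0.40 and -0.60 in mice 1, 2 and 3, and 13 of 14 enzymes had a mean below 0. The enzyme median was sensitive to mouse 3: with its WT array left out the value was 0.08, and 19 of all 33 members changed sign. That omission leaves the KO array of mouse 3 without its partner, here and for the single genes below. With both arrays of mouse 3 left out the value was -0.03, and 5 of 33 members changed sign.

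Hexokinases trap glucose as glucose 6-phosphate, and the 3 measured isoforms did not move together. *Hk1*, the broadly expressed isoform, had intensities of 2684, 2740 and 2552 in KO arrays of mice 1, 2 and 3, against 2436, 2169 and 2351 in WT arrays. All KO values lay above all WT values, which held for 1 of 33 members, against 10.2% of all probe sets. The log2 difference was 0.20 (SE 0.09), with a limma adjusted p of 0.71, and it was -0.02 where both probe sets of *Hk1* were averaged. *Hk2*, the inducible isoform, had 115, 135 and 216 in KO arrays, against 72.6, 185 and 356 in WT arrays. The KO values of *Hk2* lay within the span of the WT values. *Hk3*, an isoform of myeloid cells, had 46.2, 204 and 256 in KO arrays, against 55.7, 235 and 373 in WT arrays. Mouse 1 was the lowest in both groups and below background, and the KO value was below the WT value of the same mouse each time. The log2 difference of *Hk3* was -0.34 (SE 0.90), with a limma adjusted p of 0.95 and of 0.32 with the mouse as a block (unadjusted 0.020), and it was 0.23 with the WT array of mouse 3 left out.

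The steps after hexokinase were represented by the phosphofructokinases, which commit sugar to glycolysis, and by the aldolases, which split it. *Pfkl* had 377, 244 and 381 in KO arrays of mice 1, 2 and 3, against 272, 392 and 573 in WT arrays. *Pfkp* had 463, 337 and 393 in KO arrays, against 388, 385 and 660 in WT arrays. In both, the groups overlapped and the WT array of mouse 3 was the highest of all 6. The log2 difference was -0.27 (SE 0.31) for *Pfkl* and -0.23 (SE 0.24, limma adjusted p of 0.84, 0.59 with the block) for *Pfkp*, and *Pfkm*, the muscle isoform, was at -0.08 (SE 0.14). *Aldoa*, the main aldolase of most cells, had 3187, 3460 and 4330 in KO arrays, against 2716, 4514 and 5920 in WT arrays, a log2 difference of -0.20 (SE 0.29). *Aldoc*, the brain aldolase, was at -0.07 (SE 0.40) and was highest in the KO array of mouse 1, at 634.

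The enzymes that turn triose phosphates into pyruvate and lactate shared a profile. *Tpi1*, which interconverts the triose phosphates, had 1459, 1216 and 1737 in KO arrays of mice 1, 2 and 3, against 1016, 1816 and 2648 in WT arrays. *Pgk1*, which makes ATP from bisphosphoglycerate, had 1867, 1513 and 2140 in KO arrays, against 1270, 2221 and 3472 in WT arrays. *Pgam1*, which moves the phosphate of phosphoglycerate, had 975, 1011 and 1413 in KO arrays, against 757, 1358 and 2201 in WT arrays. In each of these the lowest of the 6 values was the WT array of mouse 1 and the highest was the WT array of mouse 3, with the KO values between them. The log2 differences were -0.22 (SE 0.35) for *Tpi1*, -0.23 (SE 0.36) for *Pgk1* and -0.23 (SE 0.39) for *Pgam1*.

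*Pkm*, pyruvate kinase, had 1581, 1510 and 1930 in KO arrays of mice 1, 2 and 3, against 1390, 2066 and 2939 in WT arrays. *Ldha*, which forms lactate, had 928, 1045 and 1331 in KO arrays, against 840, 1415 and 2221 in WT arrays. Both again had the KO values inside the span of the WT values. *Pkm* averaged 1674 ± 225 in KO and 2132 ± 777 in WT pDCs (SD, n = 3 each), a log2 difference of -0.29 (SE 0.27) with a limma adjusted p of 0.82, and of 0.46 with the block. *Ldha* averaged 1101 ± 207 in KO and 1492 ± 694 in WT pDCs (SD, n = 3 each), a log2 difference of -0.34 (SE 0.35) with a limma adjusted p of 0.84, and of 0.42 with the block. *Eno2*, the neuronal enolase, had group means under background, 55.48 in KO and 56.07 in WT pDCs, and its log2 difference of -0.11 (SE 0.40) is between values at background.

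Transport and flux control followed the enzymes in 4 of 6 genes. *Slc2a1*, the glucose transporter GLUT1, had 605, 554 and 865 in KO arrays of mice 1, 2 and 3, against 441, 819 and 1694 in WT arrays. *Slc16a3*, which exports lactate, had 309, 266 and 518 in KO arrays, against 178, 433 and 774 in WT arrays. In both genes the WT arrays of mice 1 and 3 were the lowest and the highest of the 6. The log2 difference was -0.36 (SE 0.48) for *Slc2a1* and -0.16 (SE 0.55) for *Slc16a3*, with limma adjusted p of 0.87 and 0.96, and with the WT array of mouse 3 left out it was 0.14 for *Slc2a1* and 0.33 for *Slc16a3*. *Pdk1*, which holds pyruvate out of mitochondria, had 346, 217 and 347 in KO arrays, against 258, 310 and 431 in WT arrays, and *Pfkfb3*, which makes the activator of phosphofructokinase, had 221, 323 and 451 in KO arrays, against 214, 449 and 611 in WT arrays. *Slc2a3*, the high-affinity glucose transporter GLUT3, ran against the rest. It had 468, 249 and 227 in KO arrays, against 461, 201 and 210 in WT arrays, so mouse 1 was the highest in both groups and KO was above WT in all 3 mice, with a log2 difference of 0.15 (SE 0.41). *Pfkfb4*, an isoform of *Pfkfb3*, varied little and was at -0.11 (SE 0.12).

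**Figure D2:**
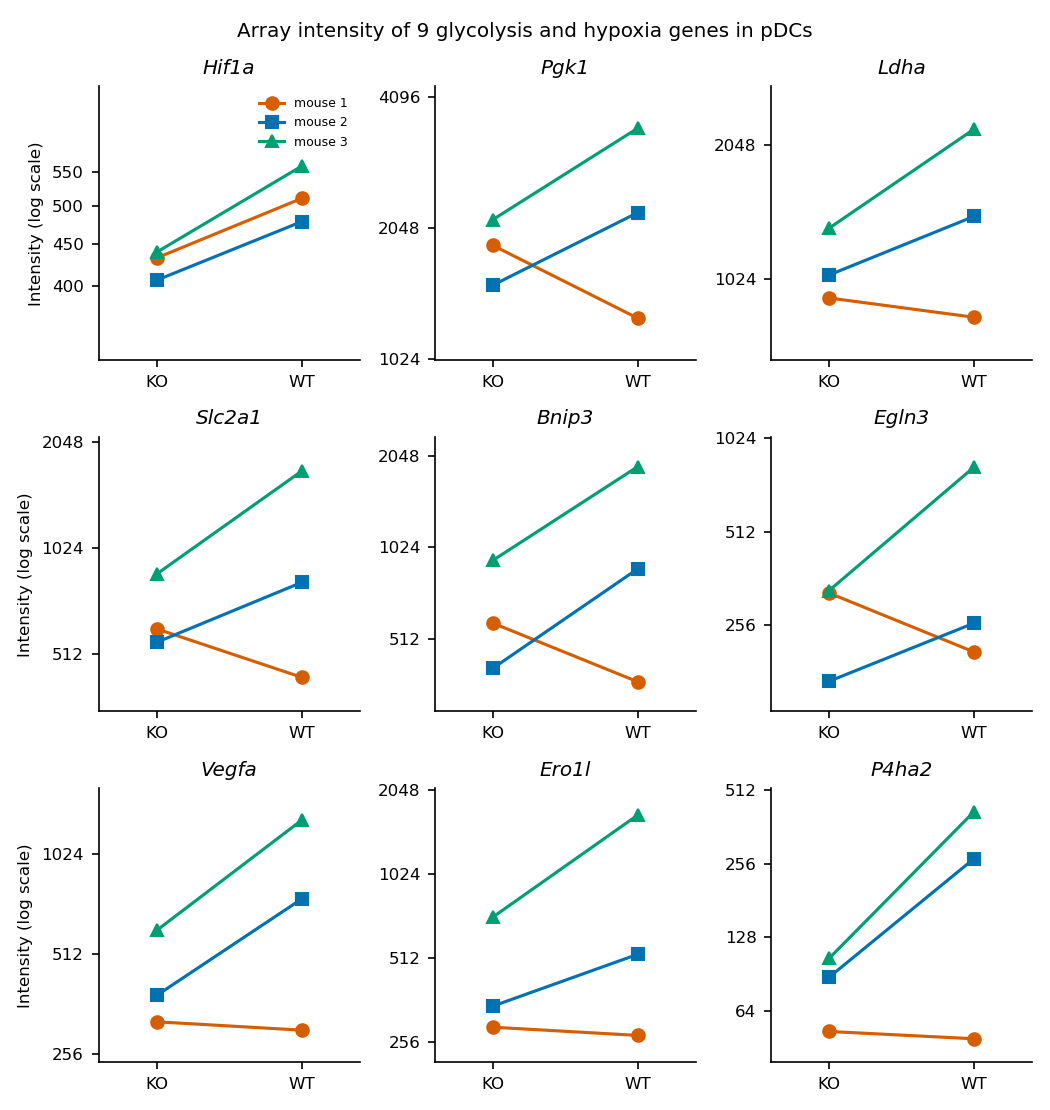
Array intensity on a log axis of 9 members in KO and WT pDCs, with 1 line for each mouse. *Hif1a* is lower in KO in each mouse, whereas in the other 8 genes the mouse 1 line runs opposite to those of mice 2 and 3, and the WT array of mouse 3 is the highest of the 6.

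HIF targets outside glycolysis had a lower median than the enzymes. The median log2 difference of the 12 genes was -0.46, with single genes between -1.17 and 0.09, and 10 of 12 were below 0. By mouse it was 0.15, -0.54 and -1.01 in mice 1, 2 and 3. The enzyme median lay above the HIF target median by 0.09, 0.14 and 0.42 in mice 1, 2 and 3, and by 0.24 for the mean of the 3 mice. With only the WT array of mouse 3 left out the HIF target median was 0.07, and the gap to the enzymes was 0.01. With both arrays of mouse 3 left out the median was -0.13 and the gap was 0.1. No test was made of the gap between the groups, since the genes share arrays.

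Collagen prolyl hydroxylases and the endoplasmic reticulum oxidase were lower in KO pDCs of mice 2 and 3. *P4ha2*, a collagen prolyl hydroxylase subunit, had 52.7, 87.9 and 105 in KO arrays of mice 1, 2 and 3, against 49.2, 269 and 419 in WT arrays. Both arrays of mouse 1 were under background, and in mice 2 and 3 the KO values lay far below the WT values. The means were 81.92 ± 26.7 in KO and 246 ± 186 in WT pDCs (SD, n = 3 each), a log2 difference of -1.17 (SE 0.79) with a limma adjusted p of 0.76, and of 0.32 with the block (unadjusted 0.017). *P4ha1*, another catalytic subunit, had 434, 409 and 510 in KO arrays, against 415, 597 and 1023 in WT arrays, a log2 difference of -0.50 (SE 0.32) with a limma adjusted p of 0.75, and of 0.36 with the block. Its KO values spanned 1.25-fold and its WT values 2.47-fold. *Ero1l*, which reoxidises the enzyme that forms disulphide bonds, had 289, 344 and 718 in KO arrays, against 270, 528 and 1670 in WT arrays, a log2 difference of -0.58 (SE 0.69) with a limma adjusted p of 0.86, and of 0.36 with the block. Here the order of mice was alike in KO and WT, and the distance between the mice was wider in WT. With the WT array of mouse 3 left out the log2 difference was -0.55 for *P4ha2*, -0.15 for *P4ha1* and 0.14 for *Ero1l*.

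The secreted factors were lower in mice 2 and 3 as well. *Vegfa*, the blood vessel growth factor, had 320, 384 and 602 in KO arrays of mice 1, 2 and 3, against 302, 748 and 1290 in WT arrays. The mouse 1 values lay close together, and the KO value was below the WT value in the other mice. The means were 435.7 ± 148 in KO and 779.7 ± 495 in WT pDCs (SD, n = 3 each), a log2 difference of -0.66 (SE 0.54) with a limma adjusted p of 0.79, and of 0.33 with the block. With the WT array of mouse 3 left out the log2 difference of *Vegfa* was -0.18. *Adm*, the vasodilator peptide adrenomedullin, had 42.1, 81.9 and 70.5 in KO arrays, against 44.9, 99.3 and 213 in WT arrays, with both mouse 1 arrays under background. Its log2 difference was -0.66 (SE 0.57), with a limma adjusted p of 0.80, and of 0.38 with the block, and its value was -0.10 with the WT array of mouse 3 left out.

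*Bnip3*, which marks mitochondria for removal, had 579, 412 and 929 in KO arrays of mice 1, 2 and 3, against 372, 872 and 1884 in WT arrays. *Egln3*, the HIF prolyl hydroxylase PHD3, had 325, 169 and 331 in KO arrays, against 210, 260 and 826 in WT arrays. In both, mouse 1 was higher in KO and the other mice were lower in KO, and the groups overlapped. The log2 difference was -0.49 (SE 0.61) for *Bnip3* and -0.43 (SE 0.55) for *Egln3*, with limma adjusted p of 0.86 and 0.87, and with the WT array of mouse 3 left out it was 0.09 for *Bnip3* and 0.17 for *Egln3*. Their relatives had values closer to 0: *Bnip3l* had a log2 difference of -0.15 (SE 0.29) and *Egln1*, PHD2, of -0.17 (SE 0.21). *Ankrd37*, an ankyrin repeat protein, was at -0.18 (SE 0.33). *Ndrg1*, a stress response gene, had 140, 133 and 203 in KO arrays, against 81.1, 139 and 282 in WT arrays, and *Car9*, the carbonic anhydrase of hypoxic tumours, stayed between 63.2 and 94.7 on all 6 arrays. These were the HIF targets with a mean above 0, at 0.09 (SE 0.45) for *Ndrg1* and 0.03 (SE 0.20) for *Car9*.

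The WT arrays were ordered by mouse in most members, and fewer members held this order in the KO arrays. WT values followed mouse 1 below mouse 2 below mouse 3 in 27 of 33 members (81.8%), against 17.2% of all probe sets, and in all 12 HIF targets. KO values followed that order in 12 of 33 (36.4%), against 21% of all probe sets. The WT array of mouse 3 was the highest WT array in 31 of 33 members (93.9%), against 26.5% of all probe sets, with *Hk1* and *Slc2a3* as the exceptions. The same held for 25 of 30 further HIF targets and 13 of 15 neutrophil markers, but for 1 of 17 pDC markers. The log2 range over mice was smaller in KO than in WT for 28 of 33 members (84.8%), against 54.8% of all probe sets. The median log2 range was 0.65 in KO and 1.30 in WT arrays over the members, against 0.30 in both over all probe sets. It was 0.52 in KO and 1.10 in WT arrays over the enzymes, and 0.84 in KO and 1.89 in WT arrays over the HIF targets. *P4ha2* spanned 1.99-fold in KO and 8.52-fold in WT arrays, *Ero1l* 2.49-fold in KO and 6.20-fold in WT arrays, and *Slc2a1* 1.56-fold in KO and 3.84-fold in WT arrays. A smaller range in KO was not limited to the members: it held for 16 of 17 pDC markers (median log2 range 0.63 in KO and 1.35 in WT arrays), 19 of 20 stromal markers (1.59 in KO and 2.60 in WT arrays), 8 of 9 B cell markers and 26 of 30 further HIF targets. The smaller range held less often for macrophage and monocyte markers (8 of 16), proliferation genes (5 of 17) and genes of pyruvate entry into mitochondria (6 of 16). The WT order held for 13 of 15 neutrophil markers and 12 of 20 stromal markers. The log2 range was larger in KO for *Pfkm*, *Aldoc*, *Eno2*, *Pfkfb4* and *Car9*.

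**Figure D3:**
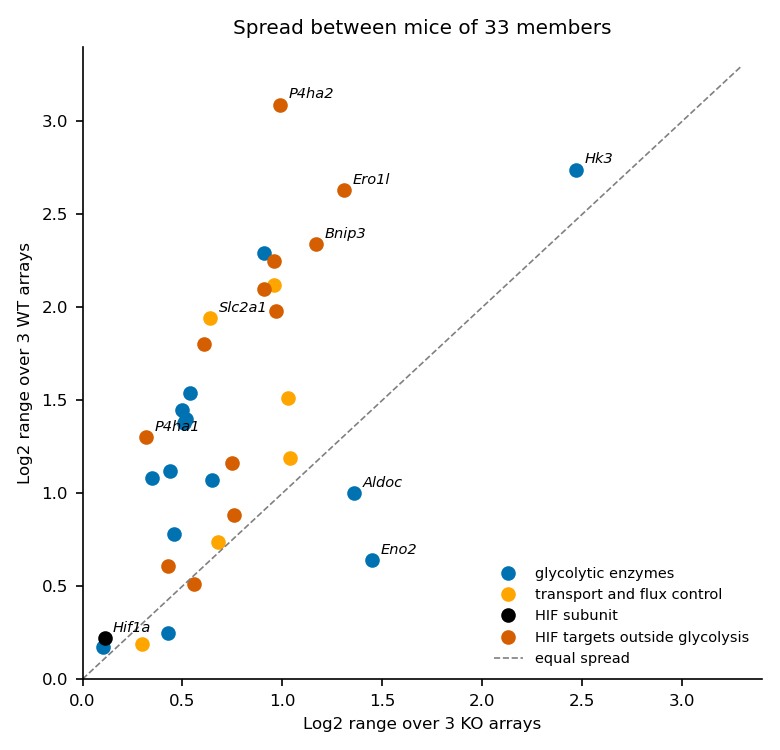
Log2 range over the 3 KO arrays (horizontal) against the log2 range over the 3 WT arrays (vertical) of the 33 measured members, coloured by group, with a dashed line at equal spread. Of the 33 points, 28 lie above the line, *P4ha2* at 0.99 in KO and 3.09 in WT arrays, and *Hk3* is wide in both at 2.47 and 2.74.

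Mice 2 and 3 were also compared without the mouse 1 arrays. Without both mouse 1 arrays, 1 of 33 members was lower at a limma adjusted p of 0.05 (*P4ha2*, log2 difference -1.81, adjusted p of 0.033), against 0.49% of probe sets. With the mouse as a block, a choice made for these 2 mice after the values were seen, 9 of 33 were lower, against 1.81% of probe sets: *Pfkl*, *Slc2a1*, *Slc16a3*, *Bnip3*, *Egln3*, *Vegfa*, *Ero1l*, *P4ha1* and *P4ha2*. These were 1 of 14 enzymes, 2 of 6 transport and flux genes and 6 of 12 HIF targets. With 2 mice left, these values describe those mice. At the same threshold 17 of 20 stromal markers and 9 of 15 neutrophil markers were lower with the block. Without the block the counts were 14 of 20 and 5 of 15. The median log2 difference in mice 1, 2 and 3 was -0.04, -1.41 and -1.45 for stromal markers, -0.20, -1.09 and -1.13 for neutrophil markers, -0.40, -0.49 and -0.22 for macrophage and monocyte markers and -0.10, 0.38 and 0.62 for pDC markers. B cell markers, of which 9 were measured and none had both group means under background, had medians of 0.10, -0.50 and -0.33, the same signs as the members. They summed to 2856, 4449 and 4746 in KO arrays and to 2774, 6174 and 5817 in WT arrays. Single values did lie under background, such as *Ebf1* in mouse 1, at 43.6 in KO and 40.8 in WT. B220 is also carried by B cells. Proliferation genes, of which 17 were measured, had medians of 1.31, -0.19 and -0.14 with the same signs. The part of these cell types and of proliferation in the values of the members was not tested.

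**Figure D4:**
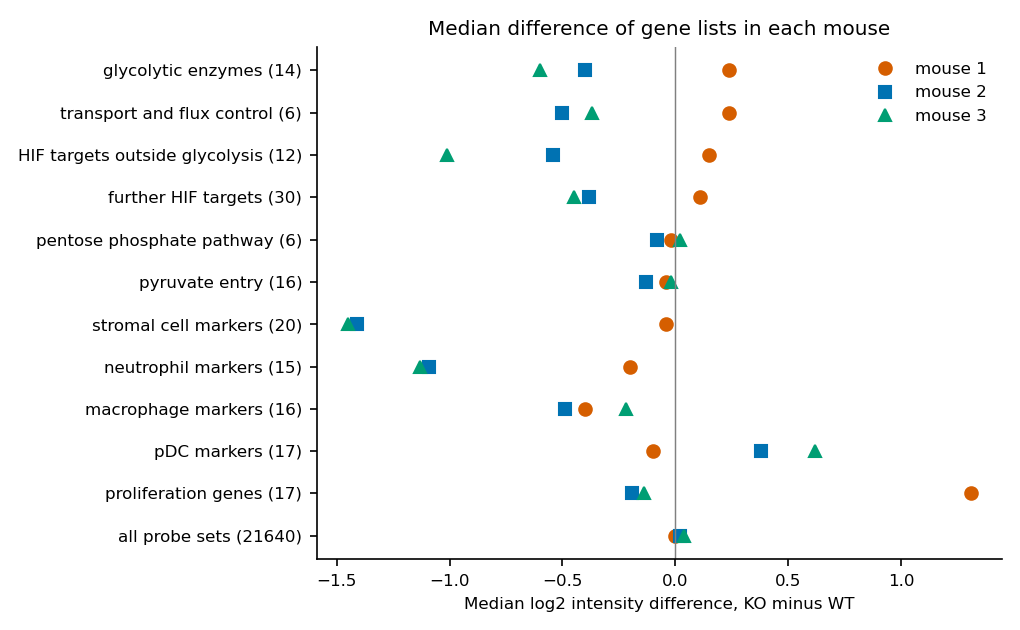
Median log2 intensity difference, KO minus WT, of gene lists (number of genes measured in brackets), with 1 point for each mouse. Enzymes, transport genes and HIF targets lie right of 0 in mouse 1 and left of it in mice 2 and 3, stromal markers lie near -0.04 in mouse 1 and at -1.41 and -1.45 in mice 2 and 3, and proliferation genes lie at 1.31 in mouse 1.

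Neighbouring pathways gave a measure of how far the pattern reached. A further 30 measured HIF targets of 32 listed had a median log2 difference of -0.22, and of 0.11, -0.38 and -0.45 in mice 1, 2 and 3. None passed an unadjusted limma p of 0.05, against 1.9% of all probe sets lower and 5.14% higher. With the block 8 were lower at that level, against 5.99% of all probe sets, and 2 were higher, against 7.46%. *Hmox1*, the haem-degrading enzyme and also a macrophage gene, had 207, 2920 and 3838 in KO arrays, against 375, 4968 and 6761 in WT arrays. It was lower in KO in all 3 mice, with log2 differences of -0.86, -0.77 and -0.82, and the limma adjusted p was 0.91, and 0.18 with the block. By contrast the pathways that draw from glycolysis had medians near 0, at -0.01 over 6 measured pentose phosphate genes of 7 and -0.03 over 16 measured genes of 17 for pyruvate entry into mitochondria. Of these, *Pgd* of the pentose phosphate pathway had 424, 999 and 1050 in KO arrays, against 493, 1569 and 1809 in WT arrays, and *Dld*, the shared dehydrogenase subunit, had 392, 402 and 382 in KO arrays, against 464, 468 and 452 in WT arrays. The KO and WT values of *Dld* did not overlap, and its log2 difference was -0.23 (SE 0.08) with a limma adjusted p of 0.69. The remaining 17 measured glycolysis genes of 20, largely isoforms of other tissues and side branches, had a median of 0.02. At an unadjusted limma p of 0.05, 1 was lower (*Minpp1*, a phosphatase of bisphosphoglycerate, -0.28, SE 0.11), against 1.9% of all probe sets. At that level 0 were higher, against 5.14%.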

How the data were processed

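Per the labels, total RNA of sorted pDCs from 3 mice was hybridised to 6 one-colour arrays. The deposited values are intensities on a linear scale (3.07 to 19106) that the authors had normalized between arrays (array medians 69.0 to 72.9), by a method not given in the sources used here. Arrays have no read depth, and their number limits the precision. Intensities were log2-transformed without further normalization or filter. The 21640 of 34760 probe sets with 1 symbol were compared, KO minus WT, with limma 3.58.1 (lmFit, eBayes; R 4.3.3), with Benjamini-Hochberg adjustment over all of them at a threshold of 0.05, two-sided. The arrays of a pair come from the same mouse, so a fit with mouse as a block was run as an alternative. After the group means were taken off, each KO array correlated best with its partner. Full statistics were given for the 4 enzymes and 4 HIF targets with the smallest p in either fit and for members at a log2 difference of at least 0.5 in size. Genes of the other pathway lists (not the cell type markers or proliferation genes) were named at an unadjusted p under 0.05, or at that size in the same direction in all 3 mice, and *Arnt*, *Vhl* and *Epas1* were named for their role. Members and lists were chosen with earlier results of these data known. Counts and summaries were made with pandas 2.3.3 in Python 3.11.15, and the fit was tested on simulated data. The 4 members on 2 probe sets were also averaged.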

Additional observations from a re-analysis of the deposited data

How the results depend on the processing

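The log2 differences of the members kept their sign under array centring, the floor at the 20th percentile and the trended variance, and 1 changed sign with quantile normalization repeated, 1 with probe sets averaged and 2 with array weights. Without the WT array of mouse 3, 19 of 33 changed sign, and without both arrays of mouse 3, 5 of 33 did. The number of members at an unadjusted limma p of 0.05 was 1 in the reported fit, against 1525 of 21640 probe sets. With the mouse as a replicate block it was 6, against 2911 probe sets. It was 0 with quantile normalization repeated, 2 with the floor and 5 with array weights. Without both arrays of mouse 1 and without the block, 9 members were lower and 0 higher, against 1686 and 2115 probe sets. With single arrays or mice left out it was 0 to 10 (10 if the omitted one is WT of mouse 1). With mice left out under the block it was 0 to 25. Counts over all probe sets at the unadjusted p are not given here for the other settings. Members past the adjusted threshold numbered 0 to 9, and probe sets 0 to 513, over the same omissions. Without both arrays of mouse 1 there were 1 member and 108 probe sets without the block, and 9 members and 513 probe sets with it. The gap between enzyme and HIF target medians, 0.24, was 0.01 to 0.35 over omissions, the lowest without the WT array of mouse 3. The enzyme median ranged from -0.55 to 0.08 and the HIF target median from -0.85 to 0.07. The cause of these shifts was not tested. Other settings changed no call at the adjusted threshold. With 3 arrays a group, dim genes such as *Eno2* carry no usable difference.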

Other observations

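Among the further HIF targets were *Plod1* and *Plod2*, lysyl hydroxylases of collagen. *Plod1* was lower in KO arrays of all 3 mice, and *Plod2* was lower in those of mice 2 and 3 only. *Plod1* had 130, 278 and 343 in KO arrays of mice 1, 2 and 3, against 167, 470 and 529 in WT arrays, and *Plod2* had 239, 123 and 152 in KO arrays, against 224, 230 and 256 in WT arrays. The log2 difference was -0.58 (SE 0.54) for *Plod1* and -0.52 (SE 0.24) for *Plod2*, with limma adjusted p of 0.82 and 0.71. With the mouse as a block the limma adjusted p was 0.29 for *Plod1* and 0.34 for *Plod2*. *Ak4*, a mitochondrial adenylate kinase, had 89.7, 96.9 and 162 in KO arrays, against 53.2, 182 and 407 in WT arrays, and so showed the split between mice seen in most members. *Slc2a6*, a lysosomal hexose transporter of myeloid cells, had 399, 289 and 291 in KO arrays, against 287, 243 and 221 in WT arrays. It was higher in KO in all 3 mice, with a log2 difference of 0.38 (SE 0.17) and a limma adjusted p of 0.71. Of these genes, *Plod2*, *Ak4* and *Slc2a6* were chosen after their values were seen.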
